A study of Aspergillus nidulans with 2 samples.

Results

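The chaperone genes of the mould Aspergillus nidulans (Emericella nidulans) were followed in mycelium exposed to menadione. They are the 7 genes that the platform annotation of the array names bipA, clxA and pdiA, whose products work in the endoplasmic reticulum (ER), and hsp70, hsp90, fes1 and awh11, of the cytosol and the heat shock response. All probes with one of these symbols were taken, whatever their values, which gave 7 of the 2064 genes and 16 of the 3533 probes on the array. Strain FGSC 26 grew for 18 h at 37 °C, and its mycelium then spent 6 h in new minimal medium, either with 0.8 mM menadione (the sodium bisulfite compound) or with none. Menadione is a quinone that is reduced and reoxidised in the cell and forms superoxide in the process. Each of 2 arrays carried RNA of menadione-exposed mycelium together with RNA of untreated mycelium. Menadione RNA carried Cy5 on the flip and Cy3 on the flop array, and untreated RNA the other dye.

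Chaperones hold newly made or damaged proteins in a state from which they can fold. In the ER, the Hsp70-type BipA binds secretory proteins as they enter, calnexin (clxA) holds those that carry sugar chains, and protein disulfide isomerase (pdiA) forms and rearranges their disulfide bonds, a reaction that depends on the redox state of the ER. In the cytosol, Hsp70 and Hsp90 fold and keep other proteins, Fes1 is known from yeast as a factor that makes Hsp70 release its nucleotide, and awh11 encodes a small heat shock protein related to yeast Hsp12. Filamentous fungi secrete large amounts of enzymes, and their ER chaperone genes are known as targets of the unfolded protein response.

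The deposited values are normalised log ratios. Positive values were taken to mean more transcript with menadione than in untreated mycelium, because menadione RNA is the first channel of both samples. The direction and the base of the logarithm are not stated, and values are read as log2, so every direction given here rests on that reading. The opposite direction would exchange higher and lower throughout. The flip array held 3049 ratios and the flop array 2267, 2265 probes had both, and the 2 columns correlated at a Pearson r of 0.844 across those probes, which are not independent replicates. Their medians were 0.01 (flip) and 0.10 (flop), and the SDs of all values were 0.965 and 1.16. The intensities behind the ratios are unknown here, and the number of arrays limits the precision. Whether the arrays held RNA from different cultures is not in the labels, so p-values here cover no more than spread between these 2 arrays, possibly a technical one. Those from limma rest on the 2 values of a gene or probe and also on the spread pooled over all genes or probes tested. RNA came from whole mycelium, so fewer hyphal cells with a transcript and less transcript per cell cannot be told apart.

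Of the 7 chaperone genes, awh11 and clxA fell with menadione, 2.60-fold and 1.97-fold, and none rose. The ER gene bipA and the cytosolic hsp90 were below 0 on both arrays without passing the test, at 1.53-fold and 1.34-fold lower. The ER gene pdiA lay slightly above 0 on both arrays, and hsp70 and fes1 were negative on the flip and positive on the flop array. By limma with Benjamini-Hochberg adjustment over 1455 genes, 2 of the 7 passed an adjusted p of 0.05, both lower. In that test 9.48% of all genes were called lower and 19.0% in either direction. The median over the 7 genes was -0.43 on the log2 scale, beside 0.03 over all genes tested. On both arrays 4 of the 7 were negative, 1 was positive and 2 had opposite signs, against 580, 628 and 226 of the 1455 genes.

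Behind these values stand 16 probes, cloned expressed sequence tags. Of these, 11 had a value on both arrays, 3 on the flip array alone and 2, both of hsp70, on neither. Values on both arrays were held by 68.8% of the members' probes and by 64.1% of all probes. In the fit of single probes 3 of the 11 passed an adjusted p of 0.05 by limma, all lower, 1 each for bipA, clxA and awh11, where 12.4% of the 2265 probes were called lower and 24.6% in either direction.

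**Figure D1:**
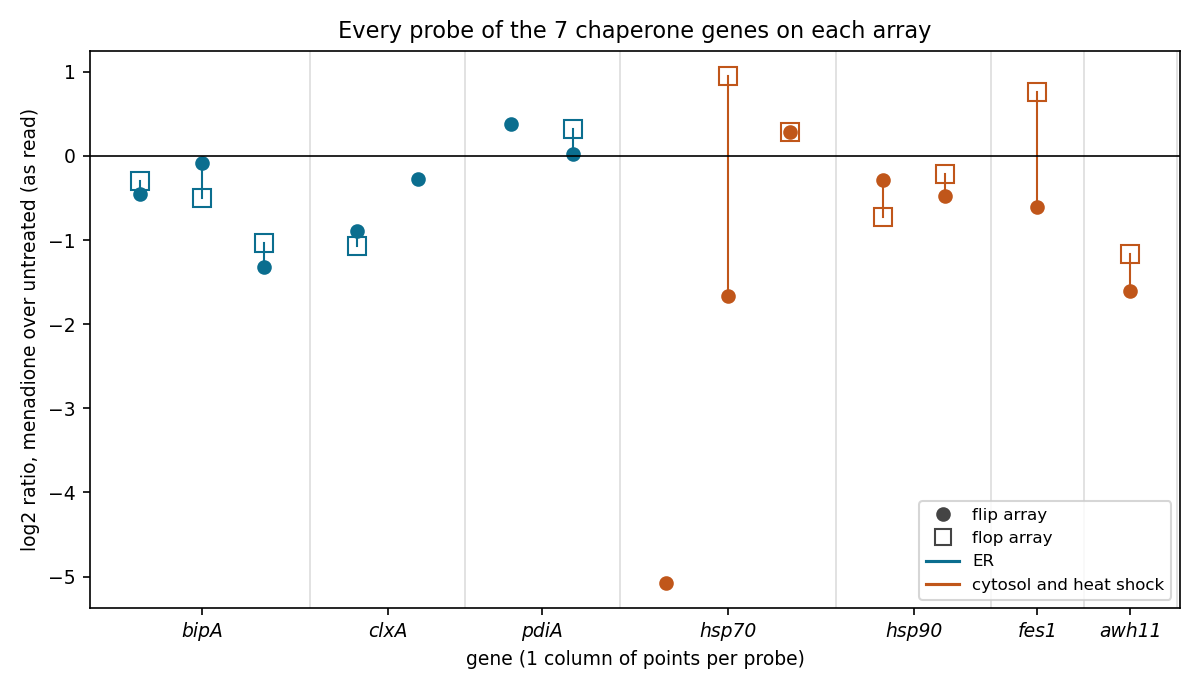
Log2 ratios (vertical axis) of the 14 probes of the 7 chaperone genes that had a value, with a filled circle for the flip array and an open square for the flop array, joined where a probe had both. Most probes lie between -2 and 1, the awh11 probe and 1 bipA probe lie below -1 on both arrays, and 1 hsp70 probe, with a flip value only, lies at -5.07.

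The calnexin gene clxA (locus tag ANIA_03592) was the ER gene that fell. Its probe 1849 was at -0.89 on the flip and -1.07 on the flop array, so both arrays were clearly negative and lay close together. The mean was -0.98 ± 0.13 (SD, n = 2), with a limma 95% interval of -1.42 to -0.54 and an adjusted p of 0.0454. As a fold this is 1.97-fold lower with menadione, with an interval from 1.46-fold to 2.67-fold. The other clxA probe, 2988, was measured by the flip array alone, at -0.27, the same sign and a smaller size. When that value was averaged into the gene, clxA was at -0.83 and no longer passed (limma adjusted p = 0.0953).

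The gene bipA (ANIA_02062) had 3 probes, all with values on both arrays and all negative in every one of the 6 values. Probe 2062 was at -1.32 on the flip and -1.03 on the flop array. Probe 1182 was at -0.45 and -0.30, and probe 1714 at -0.08 and -0.50. Probe 2062 was thus the lowest of the 3 on both arrays, and its difference from the mean of the other two was -1.055 (flip) and -0.63 (flop). It passed in the fit of single probes at a mean of -1.18 ± 0.21 (SD, n = 2; limma adjusted p = 0.0391), and the other two did not. Averaged over its probes, bipA was at -0.617 on the flip and -0.610 on the flop array. The SD of 0.0047 between these means is far smaller than the SDs of its single probes, between 0.11 and 0.30. The gene mean of -0.61 had a 95% interval of -1.01 to -0.22 and did not pass over all genes (limma adjusted p = 0.0638). It passed when the arrays were divided to a common SD (-0.62, adjusted p = 0.0428) or centred on their medians (-0.67, adjusted p = 0.0477), by limma. In these settings calls rose over the whole table too, to 17.5% (common SD) and 15.5% (centred) of all genes called lower.

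Protein disulfide isomerase, pdiA (ANIA_07436), was at 0.02 on the flip and 0.32 on the flop array by probe 609. Its other probe, 134, was at 0.38 on the flip array alone. All 3 values were thus at or above 0, unlike those of the other ER genes. The mean of probe 609 was 0.17 ± 0.21 (SD, n = 2), with a 95% interval of -0.33 to 0.67 (limma adjusted p = 0.432). Within an array, the difference clxA minus pdiA was -0.91 (flip) and -1.39 (flop), and bipA minus pdiA was -0.64 and -0.93. By these values the order of the ER genes was clxA, bipA, pdiA on both arrays. They leave out clxA probe 2988, at -0.27 on the flip array alone, and averaging it in would put clxA above bipA on that array. With 2 arrays an exact sign-flip test of such a difference cannot go below p = 0.5, and no p is given.

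The cytosolic hsp70 gene (ANIA_05129) gave the least uniform values. Probe 3201 was at 0.29 on both arrays, 1 of 28 probes with identical values on both. Probe 1117 was at -1.67 on the flip and 0.95 on the flop array, a gap of 2.62. Of all probes with both values, 99.5% had a gap no larger than that. Probe 964 was at -5.07 on the flip array, the lowest of all 3049 flip values, ahead of a next lowest value of -4.77, and had no value on the flop array. Of the 784 probes with a flip value alone, 9.69% were at or below -1, against 12.6% of the probes with both values. The gene value from probes 1117 and 3201 was -0.69 on the flip and 0.62 on the flop array, a mean of -0.035 ± 0.93 (SD, n = 2). Its 95% interval, -1.44 to 1.37, includes falls and rises of more than 2-fold (limma adjusted p = 0.953). With probe 964 averaged in, hsp70 was at -0.765, still not past the threshold (limma adjusted p = 0.525).

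The gene fes1 (ANIA_06543), which encodes the nucleotide exchange factor, had 1 probe, 1685, at -0.61 on the flip and 0.76 on the flop array. The signs were opposite, as for the gene value of hsp70. Its mean was 0.075 ± 0.97 (SD, n = 2), with a 95% interval of -1.39 to 1.54 (limma adjusted p = 0.900). The difference flip minus flop was -1.37 for fes1 and -1.31 for hsp70. Of the 1455 genes, 160 (11.0%) were negative on the flip and positive on the flop array, and 40 had a flip value at least as far below the flop value as hsp70 had. For both genes, leaving out 1 array sets the sign.

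The hsp90 gene (ANIA_08269), which encodes the chaperone of many kinases and regulators, was negative in all 4 values. Probe 2390 was at -0.29 on the flip and -0.73 on the flop array. Probe 3166 was at -0.48 and -0.21. The probes changed order between the arrays, and the gene value was -0.385 and -0.47. The mean of -0.43 ± 0.06 (SD, n = 2) had a 95% interval of -0.83 to -0.02 and did not pass over all genes (limma adjusted p = 0.106).

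The small heat shock gene awh11 (ANIA_03725) was the lowest of the 7. Its only probe, 495, was at -1.60 on the flip and -1.16 on the flop array, and no other member's gene value was as low on either array. On the flip array, single hsp70 probes were lower, 1117 at -1.67 and 964 at -5.07. Probe 964 has no flop value and is left out of the gene value, and averaging it in would put hsp70 below awh11 on that array. The mean was -1.38 ± 0.31 (SD, n = 2), with a 95% interval of -1.98 to -0.78 (limma adjusted p = 0.0454). This is 2.60-fold lower with menadione, with an interval from 1.71-fold to 3.95-fold. If the values are natural logarithms, the fold is 3.97 for awh11 and 2.66 for clxA. Of the 7 genes only awh11 was at least 2-fold lower on both arrays, a size that 9.14% of the 1455 genes reached. Among the 1455 means awh11 was the 109th from the lowest and clxA the 183rd. On the flop array alone clxA was at least 2-fold lower too, so the count by size was 2 there and 1 on the flip array, where 13.2% and 12.2% of all genes reached that size.

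The calls for awh11 and clxA had little margin, since no gene of the table had an adjusted p below 0.0423 in that fit. In the unmoderated one-sample test, which has 1 residual degree of freedom, no gene passed (245 genes at an unadjusted p under 0.05), with adjusted p-values of 0.309 for awh11 and 0.297 for clxA. No gene passed either when probes with a value on 1 array were averaged in (589 genes at an unadjusted p under 0.05), where awh11 was at an unchanged -1.38 (limma adjusted p = 0.0561).

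**Figure D2:**
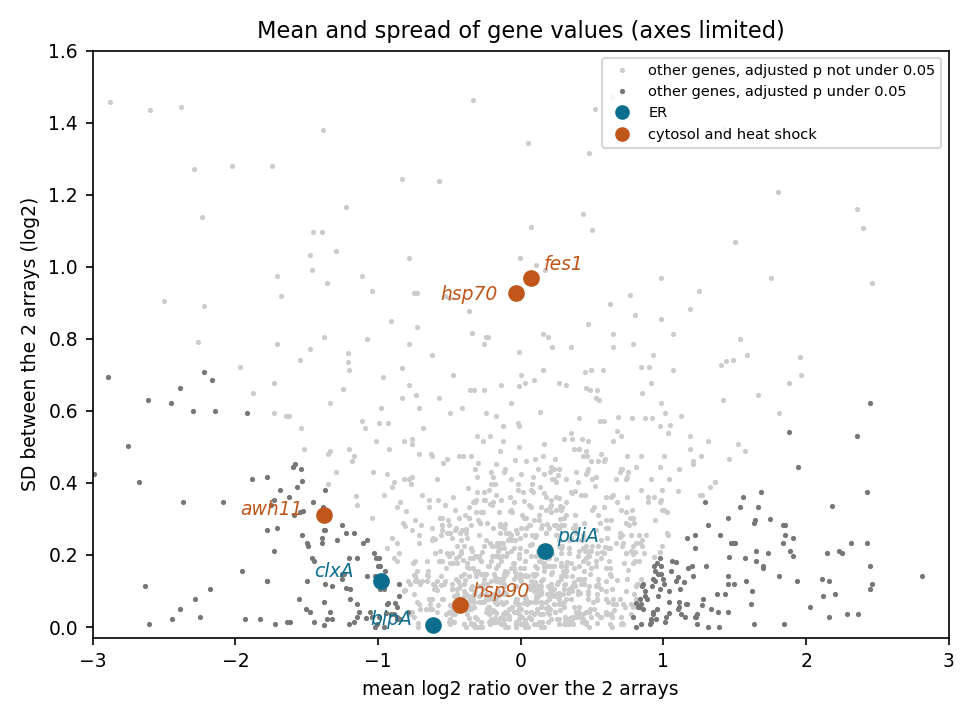
Mean log2 ratio over the 2 arrays (horizontal axis) and SD between them (vertical axis) for the 1455 genes, with the 7 chaperone genes named and genes past an adjusted p of 0.05 in dark grey; 31 genes lie outside the axes. awh11 and clxA lie among the called genes on the left, bipA and hsp90 have small SDs and means nearer 0, and hsp70 and fes1 have means near 0 and SDs of 0.93 and 0.97.

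From lowest to highest, the gene means ran awh11, clxA, bipA, hsp90, hsp70, fes1, pdiA. The difference awh11 minus clxA was -0.71 (flip) and -0.09 (flop), a mean of -0.40 ± 0.44 (SD, n = 2) that is within its spread. The difference clxA minus bipA was -0.27 and -0.46 (mean -0.37 ± 0.13), and bipA minus hsp90 was -0.23 and -0.14 (mean -0.19 ± 0.06), both larger than the SD between 2 arrays. The order of bipA and hsp90 rests on bipA probe 2062 (-1.32 and -1.03). Neither other bipA probe was below the hsp90 gene value (-0.385 and -0.47) on both arrays. By the median of a gene's probes, bipA was at -0.475 and hsp90 at -0.4275. The order of hsp90 and hsp70 changed, with a difference, hsp90 minus hsp70, of 0.305 (flip) and -1.09 (flop). fes1 and pdiA likewise changed order between the arrays. As a mean of its probes, hsp70 was below fes1 on both arrays, with differences of -0.08 and -0.14, although each gene by itself lay far apart on the 2 arrays. Neither hsp70 probe kept that order. Probe 3201 (0.29) was above fes1 (-0.61) on the flip array, and probe 1117 (0.95) was above fes1 (0.76) on the flop array.

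The genes were also compared by compartment. On the flip array the mean was -0.50 over the 3 ER genes and -0.82 over the 4 cytosolic and heat shock genes, a difference, ER minus cytosol, of 0.33. On the flop array the means were -0.45 (ER) and -0.06 (cytosol), a difference of -0.39. The ER mean hardly moved between the arrays, -0.47 ± 0.03 (SD, n = 2), whereas the cytosolic mean was -0.44 ± 0.54. Within the ER mean, opposite shifts partly cancelled. From flip to flop, clxA went from -0.89 to -1.07 and pdiA from 0.02 to 0.32. The difference, -0.03 ± 0.51 (SD, n = 2), is much smaller than its spread and had opposite signs on the 2 arrays, so the arrays gave no common order of the compartments. Each compartment held 1 gene called lower, clxA in the ER and awh11 in the cytosol (limma adjusted p = 0.0454 for both), where 9.48% of all genes were called lower. Each call rests on 1 probe. Neither passed with single-array probes averaged in, where no gene of the table did.

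The SDs between the arrays were 0.0047 to 0.21 for the 3 ER genes and 0.06 to 0.97 for the 4 cytosolic genes, ranges that overlap, and the median over all genes was 0.20. The cytosolic hsp90 had a smaller SD than clxA and pdiA, and the values near 1 were those of hsp70 and fes1. An SD no larger than that of hsp70 was measured for 95.7% of all genes, and no larger than that of fes1 for 96.4%. With each of the 7 genes left out in turn, the difference stayed positive on the flip array (0.07 to 0.52) and negative on the flop array (-0.78 to -0.08). Its mean then ran from -0.35, without pdiA, to 0.22, without clxA.

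**Figure D3:**
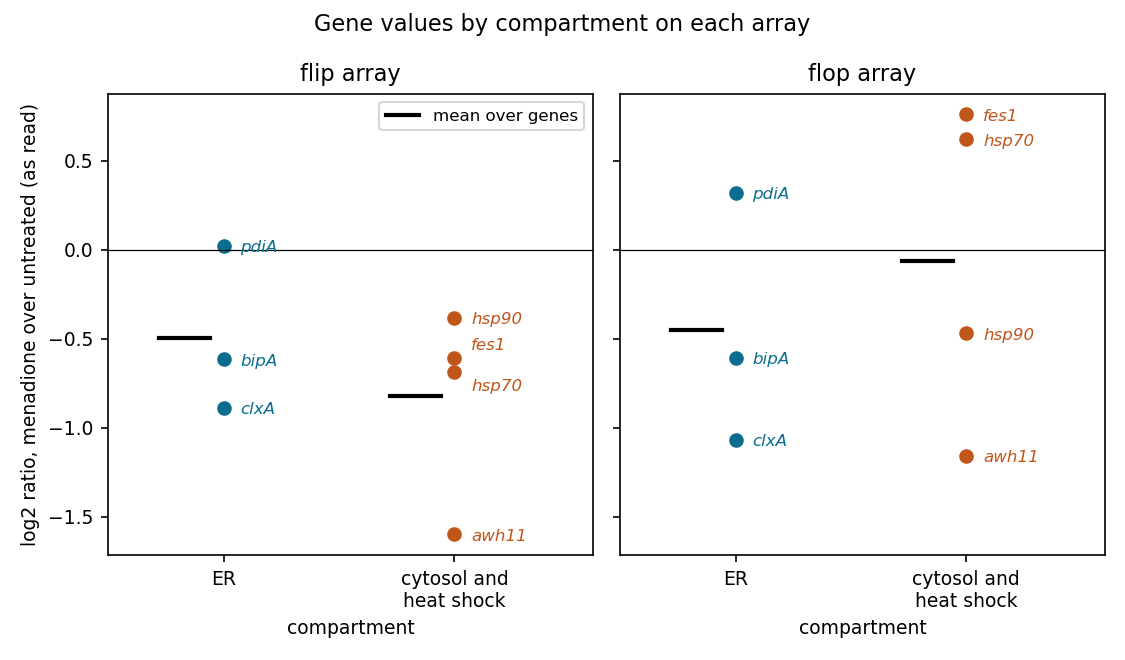
Gene values (log2 ratio, vertical axis) of the ER genes and the cytosolic and heat shock genes on the flip array (left panel) and the flop array (right panel), 1 point per gene, with a black bar for the mean over the genes of a compartment. From probes with values on both arrays, the ER points keep their order. hsp70 and fes1 lie below 0 on the flip array and above 0 on the flop array, and the cytosolic mean moves with them.

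**Figure D4:**
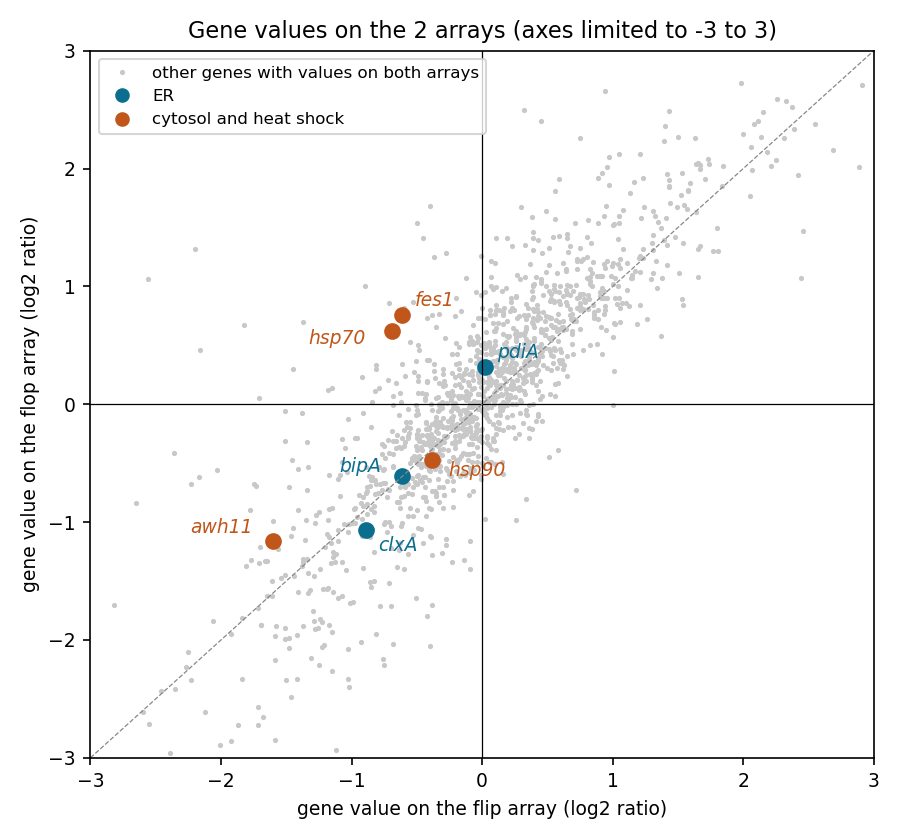
Gene values on the flip array (horizontal axis) and the flop array (vertical axis), both log2 ratios, with the 7 chaperone genes named over the other genes in grey and equal values on the dashed line; 40 genes lie outside the axes. bipA, clxA and hsp90 lie close to the line below 0, awh11 further down, pdiA near the origin, and hsp70 and fes1 in the upper left, where the arrays have opposite signs.

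Other genes of protein folding and quality control were taken from lists of 157 symbols, of which 13 besides the 7 members are on the array, 12 with a value and 9 with values on both arrays. Of these 9, 1 rose and 0 fell by limma, where 9.55% of all genes were called higher (hacA, cdc48 and sumO had an unadjusted p under 0.05 without passing). None of the listed symbols of ER folding, cytosolic heat shock or the chaperonin is on the array besides the 7 members, and genes named by a locus tag alone were left out of these counts. The gene that rose was skpA, an adaptor of SCF ubiquitin ligases, at 1.02 on the flip and 0.90 on the flop array, a mean of 0.96 ± 0.08 (SD, n = 2; limma adjusted p = 0.0454).

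The transcription factor HacA drives the unfolded protein response, and its mRNA is spliced by the ER sensor IreA. The 3 hacA probes differed in sign. Probe 551 was at -1.14 on the flip and -1.25 on the flop array and passed as a single probe (limma adjusted p = 0.0351), and probe 529 was at -2.31 and -1.20 and did not (adjusted p = 0.0573). Probe 2137 was at 0.35 and 0.72 (limma adjusted p = 0.115). The gene mean of hacA was -0.81 ± 0.32 (SD, n = 2; limma adjusted p = 0.0797), so hacA, like bipA, was negative on both arrays as a gene without passing. The only ireA probe was at -0.19 by the flip array, with no flop value.

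Cdc48, with its cofactor Npl4, draws ubiquitinated proteins out of the ER membrane. The cdc48 probes were far apart. Probe 2043 was at -3.20 on the flip and -2.01 on the flop array and passed as a single probe (limma adjusted p = 0.0403), whereas probe 3291 was at 0.38 and 0.22. The gene mean of -1.15 ± 0.36 (SD, n = 2) did not pass (limma adjusted p = 0.0553), and npl4 was at 0.14 ± 0.06. The proteasome ATPase genes were at 0.23 ± 0.28 (rpt1) and -0.22 ± 0.01 (rpt3), and the core subunit gene pre5 at 0.155 ± 0.04. The SUMO gene sumO was at 0.445 ± 0.13 (limma adjusted p = 0.113), and the ubiquitin ligase gene tom1 at 0.32 ± 0.16, with 1 probe at -0.355 and another, 2282, at 0.99, which passed as a single probe (limma adjusted p = 0.0454). With flip values only, the ubiquitin-conjugating enzyme gene ubc2 was at 0.35 and pre9 at -0.45.

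**Figure D5:**
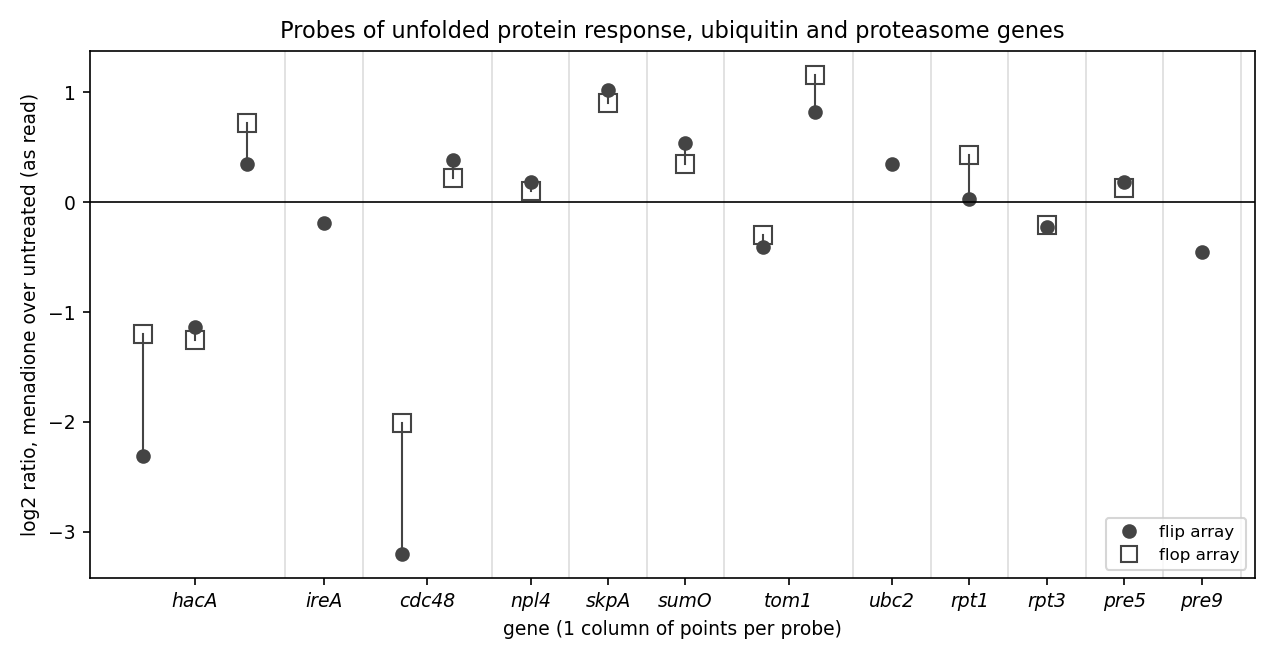
Log2 ratios (vertical axis) of every probe with a value of the 12 listed genes of the unfolded protein response, ubiquitin and the proteasome, with a filled circle for the flip array and an open square for the flop array. hacA and cdc48 have probes below -1 and probes above 0, skpA lies near 1 on both arrays, and npl4, pre5 and rpt3 lie close to 0.

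Probes of 1 gene differed in this table generally. Over the 285 genes with at least 2 probes on both arrays, the median gap between the highest and lowest probe mean was 0.865. The gap was 0.885 for bipA, 0.65 for hsp70 and 0.165 for hsp90, and 51.9%, 41.4% and 9.12% of those genes had a gap no larger. The bipA probes were thus about as far apart as those of the middle gene, and the hsp90 probes were closer together than most.

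By distance between the pairs of gene values on the 2 arrays, the gene with a symbol nearest to each member was looked for among 212 others. The nearest to hsp70 was fes1, another member, at a distance of 0.16. The hsp70 value is a mean of probes that lay far apart, at 0.29 and -1.67 on the flip array. The nearest to bipA was ish1, at -0.60 on both arrays, and the nearest to clxA was the chitinase gene chiA1, at -0.91 and -1.10. The nearest to awh11 was sonA, at -1.60 and -0.99. The nearest to hsp90 was pan2n2, to pdiA hapE and to fes1 psrA, at distances between 0.05 and 0.14. With 2 arrays this describes 2 numbers per gene.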

How the data were processed

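Per the labels and design text, the authors read the 2 arrays on a GenePix 4000B scanner, computed ratios in GenePix Pro 3.0 and normalised each block by LOESS in SAS (version 8). The deposited log ratios, read as log2, were used without further scaling. The sources used here do not give how background was handled, how duplicate spots were combined or how empty cells arose. Probe names came from the platform annotation (2779 probes with 1 gene, 0 with several, 754 unnamed here). All 2779 gene IDs matched RefSeq (assembly ASM1142v1) and 0 symbols changed.

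Gene values are means, per array, of a gene's probes with values on both arrays. Means over both arrays were compared with 0 by lmFit and eBayes of limma 3.58.1 (R 4.3.3; 1 residual and 1.71 prior degrees of freedom) over 1455 genes, and single probes over 2265, with Benjamini-Hochberg adjustment at 0.05. Intervals are 95% limma intervals, unadjusted. The fit was run on simulated log ratios with known changes. These had independent arrays, no dye effect and no missing values, so the run cannot speak to such features of the data. Depth behind each ratio is unknown. The members and lists were chosen with earlier results of these data known. The named genes are the 7 members, every listed gene with a value, and the nearest gene with a symbol to each member. Alternatives covered scaling, centring, moderation, missing values, threshold, direction, averaging of probes and each array left out.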

Additional observations from a re-analysis of the deposited data

How the results depend on the processing

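Dividing the arrays to a common SD, centring, robust moderation, an adjusted p under 0.10 and the median of a gene's probes left 2 or 3 member genes and 3 member probes past the threshold, and the third gene was bipA. It was added where calls rose over the whole table, with 17.5% of all genes called lower after scaling, 15.5% after centring and 19.3% at an adjusted p under 0.10, against 9.48% as reported. With values on 1 array kept, 0 of all 1843 genes passed in limma (666 genes, 3 of them members, had an unadjusted p under 0.05). There 305 of all 3051 probes passed, among them 1 member probe, hsp70 probe 964, whose value has no second array. With single-array probes averaged in, 0 of all 1455 genes passed (589 unadjusted, 3 of them members). By the unmoderated statistic 0 of all 1434 genes (1 member unadjusted) and 0 of all 2237 probes (0 member probes unadjusted) passed. With the sign of the flop array turned, 0 of all 1455 genes and 0 of all 2265 probes passed (0 members unadjusted in both). Then awh11 was at -0.22, bipA at -0.0033, hsp70 at -0.655, clxA at 0.09, pdiA at -0.15, hsp90 at 0.0425 and fes1 at -0.685. Apart from that setting, adjusted p-values over the alternatives ran from 0.0165 to 0.309 for awh11, from 0.0153 to 0.297 for clxA and from 0.0428 to 0.279 for bipA, the highest by the unmoderated statistic and the others by limma. The count of members at least 2-fold lower on both arrays, 1, became 2 if the values are natural logarithms (13.7% of all genes), 3 at 1.5-fold (16.4% of all genes), and 1 to 2 on 1 array alone; these settings, and leaving out single genes, were chosen after seeing the data. A single array gives no test, so the counts past the threshold were not computed on either by itself. The difference between compartments ran from -0.39 to 0.33 with 1 array left out. Over both arrays it was at -0.33 by the median over the genes of a compartment and at 0.23 with single-array probes averaged in. With the flop sign turned it was at 0.36, so its sign depended on the setting. All alternatives lay within 1 SD (0.51) of the reported value, but each of 2 arrays lies within 1 SD of their mean by construction. That SD is also far larger than the mean, so it cannot measure stability. Each log ratio already pairs menadione with untreated RNA on 1 array, and no further pairing was used because both samples belong to 1 group. Without intensities, the signal over background that limits each ratio is unknown.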
